A study of Homo sapiens with 16 samples.

Results

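The keratin genes of basal and stressed epithelium were followed across 16 RNA-seq libraries of the HMLER cell line. They are KRT5, KRT14, KRT15, KRT17, KRT6A, KRT6B, KRT6C and KRT16, 8 of the 60448 genes in the count tables, chosen by symbol and matched by Ensembl identifier. All 8 were found and all 8 passed the filter on low counts.

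Keratins build intermediate filaments as obligate pairs of a type I and a type II chain. KRT5 (type II) pairs with KRT14 and KRT15 (type I) in the basal layer of stratified and glandular epithelia, including the basal layer of the mammary gland, where this network is anchored to desmosomes and hemidesmosomes. KRT6A, KRT6B and KRT6C (type II) and KRT16 and KRT17 (type I) are the stress keratins, induced in the epidermis by wounding, inflammation and hyperproliferation and often switched on in cultured epithelial cells.

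HMLER is a line of human mammary epithelial cells that were made immortal with TERT and tumorigenic with an oncogenic HRAS, among other transgenes, which every group carries. There are 8 groups of 2 libraries: C2-Mes, a mesenchymal state, and C2-Epi, an epithelial state called plastic, both of wild-type genotype; C1-sgEED-Mes and C1-sgEED-Epi, with an EED knockout; C1-sgKMT2D-Mes and C1-sgKMT2D-Epi, with a KMT2D knockout; C1-sgControl, with a control guide; and C1, wild type and called stable. EED is a core subunit of PRC2, which writes repressive histone H3 methylation, and KMT2D is a histone H3 methyltransferase of the COMPASS family. The labels say neither whether these groups are single clones nor whether replicate libraries came from separate cultures. Each p-value thus rests on the spread between libraries, which may be technical. RNA came from cultured or sorted cells with no note of which.

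The genes lie in the 2 keratin clusters of GRCh38, all on the minus strand. On chromosome 12, KRT6B (ENSG00000185479, 52446651 to 52452126), KRT6C (ENSG00000170465, 52468516 to 52473785), KRT6A (ENSG00000205420, 52487174 to 52493257) and KRT5 (ENSG00000186081, 52514575 to 52520687) span 74.04 kb. On chromosome 17, KRT15 (ENSG00000171346, 41513743 to 41522529), KRT14 (ENSG00000186847, 41582279 to 41586921), KRT16 (ENSG00000186832, 41609778 to 41615899) and KRT17 (ENSG00000128422, 41619441 to 41624842) span 111.1 kb.

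The 3 KRT6 genes are near copies, which bears on how far their counts can be told apart. Their coding sequences, 1692 bases each, differ at 51 positions, and KRT6A was 97.5% identical to KRT6B and 97.9% to KRT6C, while KRT6B and KRT6C were 98.5% identical. The stretch shown covers coding bases 663 to 722 of each gene (minus strand of chromosome 12, GENCODE 29 transcripts). No stretch of its length holds more differences, although some that overlap it hold as many. Capitals mark the 9 positions where the 3 genes are not all alike.
KRT6A: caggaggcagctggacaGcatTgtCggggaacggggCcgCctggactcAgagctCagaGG
KRT6B: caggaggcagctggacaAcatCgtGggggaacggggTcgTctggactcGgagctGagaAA
KRT6C: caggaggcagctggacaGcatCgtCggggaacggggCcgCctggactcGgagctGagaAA
At the other extreme, 269 coding bases in a row were identical in all 3. Of the 50-base windows of the whole transcript, 39.1% in KRT6A, 47.1% in KRT6B and 53.6% in KRT6C had an exact copy in another gene, against 23.8% in KRT14, 22.0% in KRT16, 17.4% in KRT17, 3.99% in KRT5 and 0.725% in KRT15. Values of KRT6A, KRT6B and KRT6C are therefore uncertain as to the copy, and those of KRT14, KRT16 and KRT17 in part, since the treatment of reads with several matches is not given in the sources used here. The pseudogenes of KRT16 held counts equal to at most 5.05% of those of KRT16 in any library, and those of KRT17 at most 0.312% of those of KRT17.

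Library totals ran from 18872124 to 31950649 counts, both extremes in C2-Mes. The replicates of C2-Mes stood apart from each other, with an SD of 0.890 for the log2 difference between them across genes, against 0.361 to 0.493 in the other groups, so results that use C2-Mes are given with and without each of its libraries where that matters. EED RNA was 5.36 ± 0.197 CPM in C1-sgEED-Mes, 28.1 ± 1.99 CPM in C1-sgEED-Epi and 24.1 ± 3.52 CPM in C1-sgControl (SD, n = 2 each), and KMT2D RNA was 81.7 ± 6.92 CPM in C1-sgKMT2D-Mes, 126 ± 1.84 CPM in C1-sgKMT2D-Epi and 80.4 ± 13.4 CPM in C1-sgControl. Counts of RNA do not show whether the proteins were lost. The 10 epithelial marker genes summed to 18.8 to 49.8 CPM in the 6 Mes libraries and to 822 to 1590 CPM in the other 10. All 12 mesenchymal genes listed rose in the mesenchymal cells of all 3 lineages. Of all genes, 21% rose in C2-Mes, 19.2% in C1-sgEED-Mes and 26.8% in C1-sgKMT2D-Mes. Leukocyte markers summed to at most 1.93 CPM, with NKG7 at 0 in every library, and the melanocyte genes MLANA and TYR were at 0 throughout. Endothelial markers summed to 19.98 to 32.5 CPM in C2-Mes, mainly PECAM1 with CDH5 at 0, against 1.41 to 4.60 CPM elsewhere, and their part in any result was not tested.

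Levels are given in CPM, counts per 1e+06 counts of a library scaled by TMM. In mesenchymal libraries the 8 genes together made up 0.0867% and 0.0655% of all counts in C1-sgEED-Mes, 0.0165% and 0.0157% in C1-sgKMT2D-Mes, and 0.0124% and 0.00857% in C2-Mes. In epithelial libraries they made up 0.884% to 2.09%, and 2.27% and 2.37% in C1. For each of the 8 genes every mesenchymal library was below every epithelial library. How many of all genes show such a separation was not counted. The share of all genes called lower, which is another measure, is given beside each test. Of the genes, 6 were highest in C1, and KRT14 and KRT17 were highest in C1-sgControl, although neither passed the test of C1-sgControl against C1. KRT5 had the highest level per kb of coding length in C1 and in C2-Epi, C1-sgEED-Epi and C1-sgKMT2D-Epi, while KRT17 had it in C1-sgControl.

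**Figure D1:**
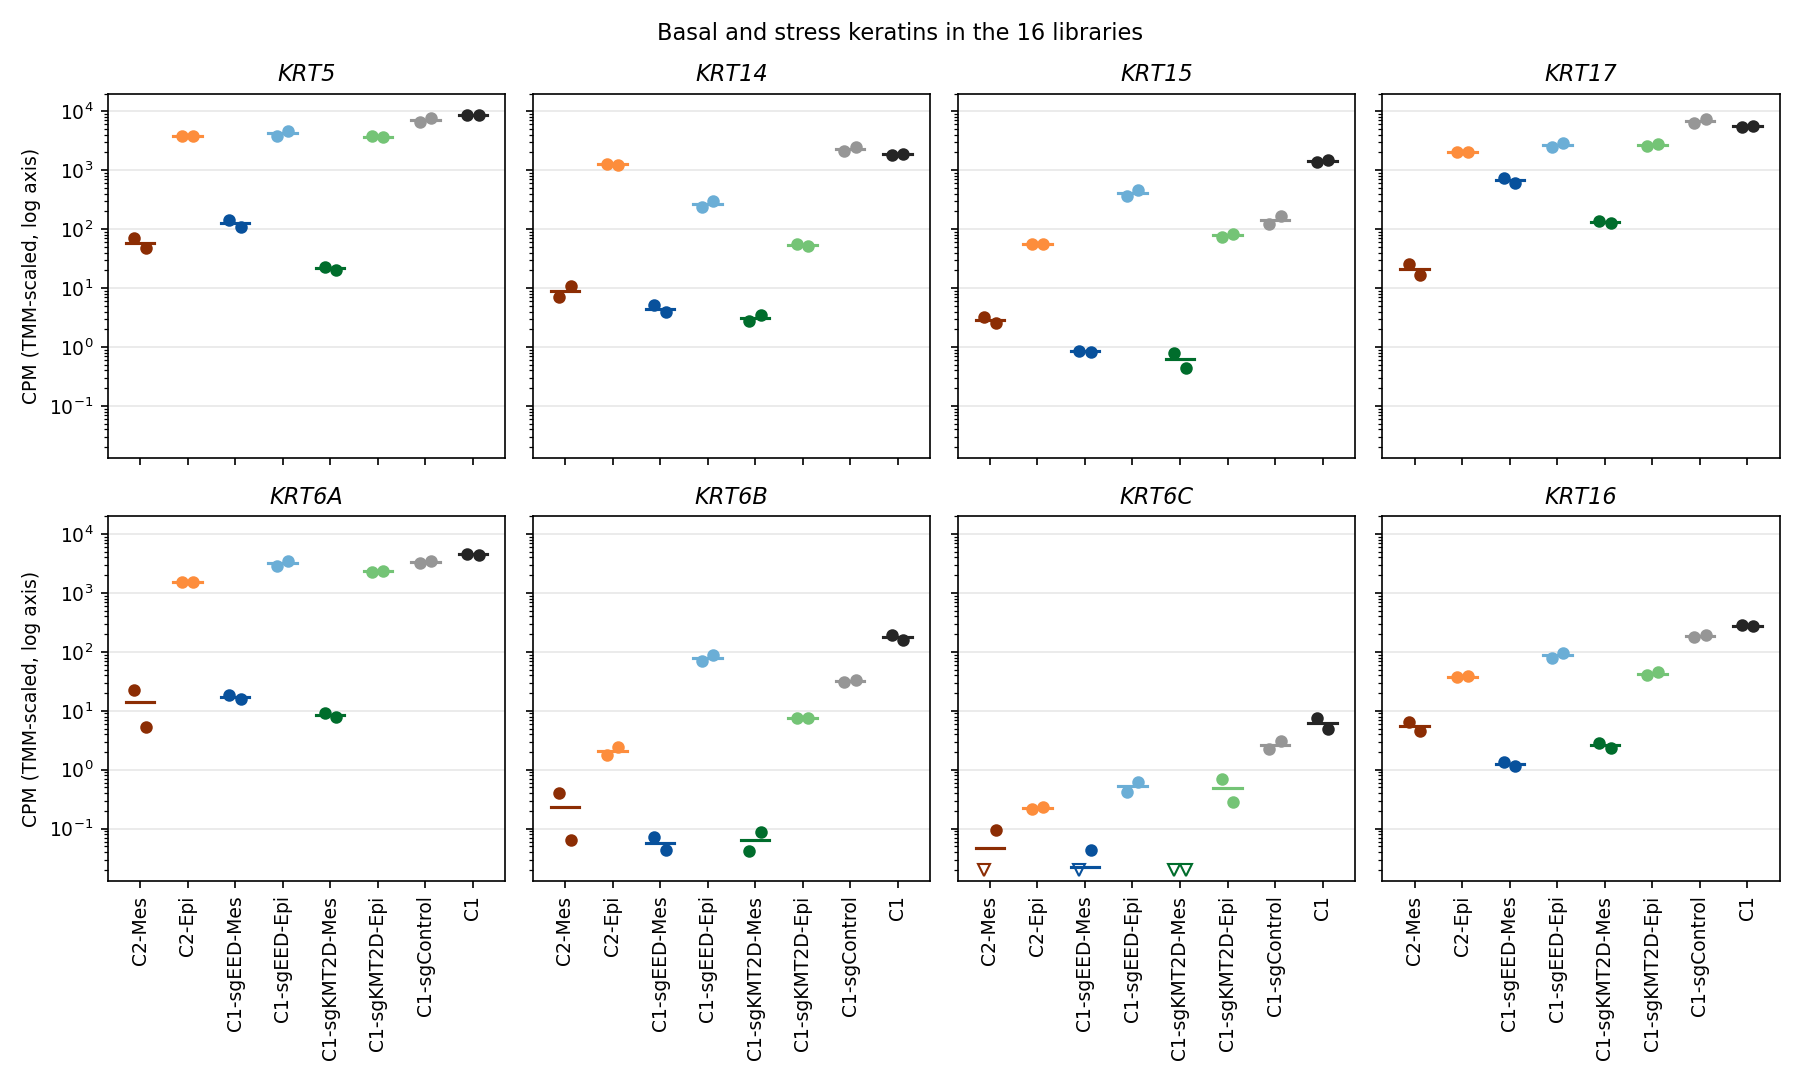
CPM of each basal and stress keratin on a log axis, 1 panel per gene, with 1 point per library, a bar at the mean of the 2 libraries of a group, and open triangles at the bottom for libraries with 0 counts. Each mesenchymal library (C2-Mes, C1-sgEED-Mes, C1-sgKMT2D-Mes) lies below every epithelial library, and KRT17 in C1-sgEED-Mes, at 749.9 and 607 CPM, is the highest mesenchymal level of any of the 8 genes.

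The first question was what became of these keratins in mesenchymal cells, set against the epithelial cells of the same lineage. They were lost almost as a block: 7 of 8 fell in C2-Mes against C2-Epi, all 8 fell in C1-sgEED-Mes against C1-sgEED-Epi, and all 8 fell in C1-sgKMT2D-Mes against C1-sgKMT2D-Epi (edgeR's quasi-likelihood test, Benjamini-Hochberg adjusted over 18285 genes). Of all genes tested, 18.6% were called lower and 21% higher in C2-Mes, 17.3% lower and 19.2% higher in C1-sgEED-Mes, and 24% lower and 26.8% higher in C1-sgKMT2D-Mes. The median log2 change of the 8 was -5.16, -5.99 and -6.73, against 0.01, 0.01 and 0.02 over all genes. With KRT6B and KRT6C at the ratio or bound of their low counts, the last median was -5.61 and the others were as before. Fewer epithelial cells in a library and less keratin RNA per cell cannot be told apart in bulk RNA.

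KRT5, the basal type II chain, had 70.6 and 47.3 CPM in C2-Mes, against 3848 and 3812 CPM in C2-Epi. In the EED lineage it had 144 and 109.8 CPM in C1-sgEED-Mes, against 3845 and 4636 CPM in C1-sgEED-Epi. In the KMT2D lineage it had 23.1 and 20.6 CPM in C1-sgKMT2D-Mes, against 3772 and 3679 CPM in C1-sgKMT2D-Epi. The epithelial groups were thus alike and far above, and the 3 mesenchymal groups were separate from each other, lowest with the KMT2D guide. KRT5 fell with a log2 change of -6.03 in C2-Mes (SE 0.23, adjusted p = 1.6e-10), -5.06 in C1-sgEED-Mes (SE 0.22, adjusted p = 8.1e-10) and -7.41 in C1-sgKMT2D-Mes (SE 0.24, adjusted p = 1.1e-10).

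KRT14, the basal type I partner of KRT5, had 6.95 and 11.1 CPM in C2-Mes, against 1274 and 1235 CPM in C2-Epi. It had 5.12 and 3.87 CPM in C1-sgEED-Mes, against 235 and 295 CPM in C1-sgEED-Epi. It had 2.80 and 3.46 CPM in C1-sgKMT2D-Mes, against 55.8 and 51.7 CPM in C1-sgKMT2D-Epi. All 6 mesenchymal libraries held it at 11.1 CPM or less, whereas the epithelial starting levels differed widely. The fall was 138-fold in C2-Mes (log2 -7.10, SE 0.26, adjusted p = 1.2e-10), 58.6-fold in C1-sgEED-Mes (log2 -5.87, SE 0.25, adjusted p = 6.3e-10) and 17.2-fold in C1-sgKMT2D-Mes (log2 -4.10, SE 0.23, adjusted p = 8.2e-09).

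KRT15, a type I chain found in basal cells and in stem cells of the hair follicle, was at 3.21 and 2.52 CPM in C2-Mes, against 55.4 and 56.3 CPM in C2-Epi. It was at 0.871 and 0.836 CPM in C1-sgEED-Mes, against 371 and 460.4 CPM in C1-sgEED-Epi. It was at 0.795 and 0.438 CPM in C1-sgKMT2D-Mes, against 74.9 and 83.8 CPM in C1-sgKMT2D-Epi. No libraries overlapped between states. The fall of 483-fold in C1-sgEED-Mes (log2 -8.92, SE 0.27, adjusted p = 6.6e-11) compared with 127-fold in C1-sgKMT2D-Mes (log2 -6.99, SE 0.26, adjusted p = 2.1e-10) and 19.7-fold in C2-Mes (log2 -4.30, SE 0.22, adjusted p = 2.2e-09).

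KRT17, the type I stress keratin that many carcinoma and basal-like cells also make, was partly kept in C1-sgEED-Mes. In the EED lineage 749.9 and 607 CPM were left in C1-sgEED-Mes, against 2460.3 and 2914 CPM in C1-sgEED-Epi. In the KMT2D lineage 137 and 128 CPM were left in C1-sgKMT2D-Mes, against 2547 and 2753 CPM in C1-sgKMT2D-Epi. In the C2 lineage 26.1 and 16.5 CPM were left in C2-Mes, against 2061 and 2005 CPM in C2-Epi. The epithelial means of these groups lay between 2033 and 2687 CPM and the mesenchymal means between 21.3 and 678 CPM, with every C1-sgEED-Mes library above every C1-sgKMT2D-Mes library and these above C2-Mes. The share of the epithelial mean that remained was 25.2% with the EED guide, 5.003% with the KMT2D guide and 1.05% in C2. The log2 changes were -1.99 in C1-sgEED-Mes (SE 0.19, adjusted p = 1.9e-06), -4.32 in C1-sgKMT2D-Mes (SE 0.21, adjusted p = 1.8e-09) and -6.58 in C2-Mes (SE 0.24, adjusted p = 1.1e-10). Over the same pair of EED groups the adhesion gene CDH1 kept 0.0923% and KRT5 kept 2.99% of their epithelial means.

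KRT6A, a type II stress keratin and partner of KRT16 and KRT17, was at 22.8 and 5.37 CPM in C2-Mes, against 1530.1 and 1508 CPM in C2-Epi. It was at 18.5 and 15.9 CPM in C1-sgEED-Mes, against 2912 and 3497 CPM in C1-sgEED-Epi. It was at 9.20 and 7.79 CPM in C1-sgKMT2D-Mes, against 2289 and 2331 CPM in C1-sgKMT2D-Epi. The C2-Mes libraries lay on either side of the other 4 mesenchymal libraries. Both C1-sgEED-Mes libraries were above both C1-sgKMT2D-Mes libraries, with a log2 difference of 1.02 that did not pass (adjusted p = 0.083), and that passed with only the compared libraries fitted (adjusted p = 0.0041). KRT6A fell with a log2 change of -6.79 in C2-Mes (SE 0.51, adjusted p = 1.5e-07), -7.54 in C1-sgEED-Mes (SE 0.52, adjusted p = 1.0e-07) and -8.09 in C1-sgKMT2D-Mes (SE 0.54, adjusted p = 5.2e-08). In C2-Mes the change was -8.14 without replicate 1 and -6.09 without replicate 2.

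KRT6B, the second KRT6 copy, was near the detection limit in mesenchymal cells. It had 7 and 2 counts in the C2-Mes libraries, against 50 and 63 in C2-Epi. It had 2 and 1 counts in C1-sgEED-Mes, against 1860 and 2509 in C1-sgEED-Epi, a 1337-fold lower level (95% counting interval 457 to 6488). It had 1 and 2 counts in C1-sgKMT2D-Mes, against 216 and 193 in C1-sgKMT2D-Epi, a 119.5-fold lower level (interval 40.6 to 582). The groups did not overlap in any lineage, and all 3 differences passed the test, with an adjusted p of 2.1e-05 in C2-Mes, 5.5e-10 in C1-sgEED-Mes and 4.0e-08 in C1-sgKMT2D-Mes. In C2-Mes the log2 change was -3.43 (SE 0.43), with -4.94 without replicate 1 and -2.39 without replicate 2. Counting intervals cover counting error only.

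KRT6C, the copy with the lowest counts, had 0 and 3 counts in C2-Mes, against 6 and 6 in C2-Epi, and this difference did not pass (adjusted p = 0.16, ratio 3.61 with an interval of 0.973 to 19.9). It had 0 and 1 counts in C1-sgEED-Mes, against 11 and 18 in C1-sgEED-Epi (26.6-fold lower, interval 4.42 to 1088, adjusted p = 0.0033). It had no counts in either C1-sgKMT2D-Mes library, against 20 and 7 in C1-sgKMT2D-Epi, at least 3.85-fold lower with a floor of 3 counts per library (adjusted p = 0.0013). Each epithelial library was above each mesenchymal library, but at counts this low a few reads assigned from KRT6A or KRT6B would change the values.

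KRT16, the type I partner of KRT6 in wounded epidermis, was at 6.49 and 4.60 CPM in C2-Mes, against 37.2 and 38.7 CPM in C2-Epi. It was at 1.38 and 1.14 CPM in C1-sgEED-Mes, against 78.3 and 97.2 CPM in C1-sgEED-Epi. It was at 2.84 and 2.32 CPM in C1-sgKMT2D-Mes, against 40.1 and 44.7 CPM in C1-sgKMT2D-Epi. States did not overlap, and C2-Mes, with the smallest fall, held the highest mesenchymal level. The fall was 6.93-fold in C2-Mes (log2 -2.79, SE 0.19, adjusted p = 3.2e-08), 68.9-fold in C1-sgEED-Mes (log2 -6.11, SE 0.22, adjusted p = 2.2e-10) and 16.4-fold in C1-sgKMT2D-Mes (log2 -4.03, SE 0.20, adjusted p = 2.1e-09).

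**Figure D2:**
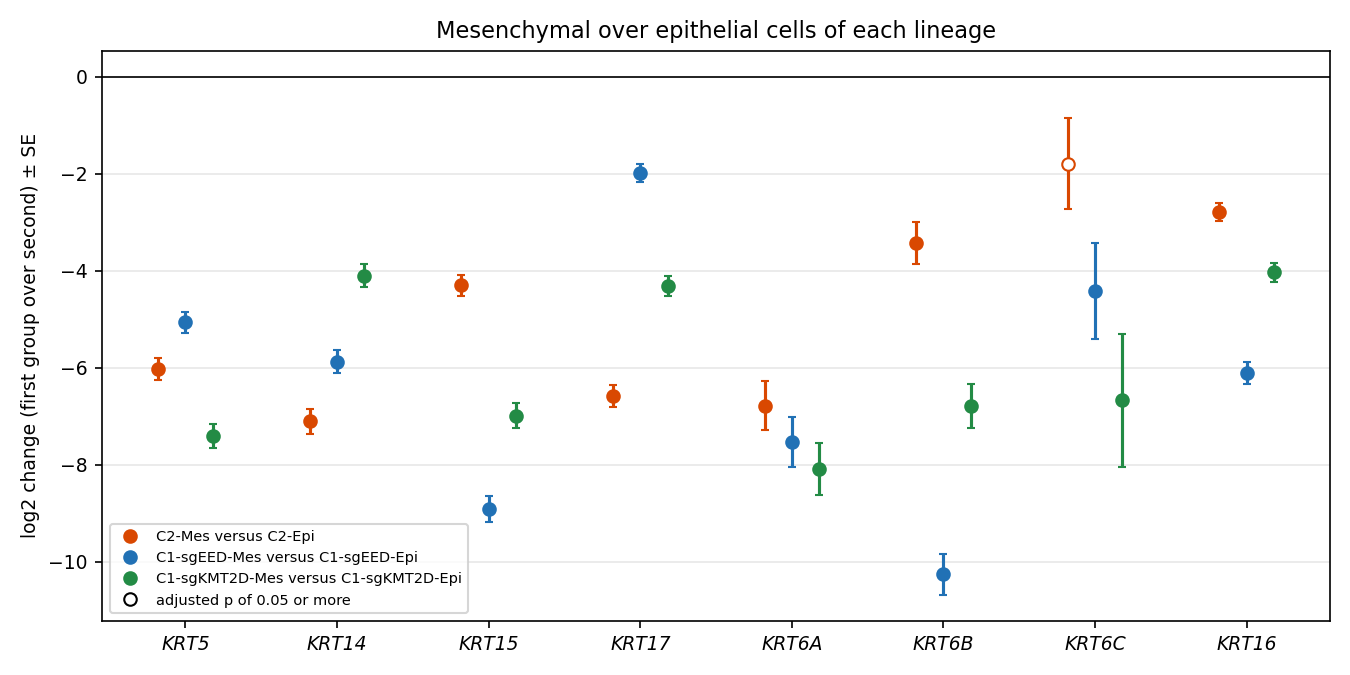
Log2 change of each keratin in the mesenchymal over the epithelial cells of each lineage, with bars of 1 SE from the fit; open points did not pass an adjusted p of 0.05. All values are below 0; KRT6A lies between -8.09 and -6.79, whereas KRT17 ranges between -1.99 in the EED lineage and -6.58 in C2, and fitted values of KRT6B and KRT6C rest on counts of 0 to 7 in mesenchymal libraries.

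Whether the size of the loss differed between lineages was tested directly as the difference between 2 log2 changes. For KRT5, KRT14, KRT15, KRT17 and KRT16 all 3 pairs of lineages differed, for KRT6B 2 of 3 pairs did, and for KRT6A and KRT6C none passed in edgeR's quasi-likelihood test. Between the EED and KMT2D lineages, 2 of the 8 differences were called positive and 3 negative (9.24% and 10.9% of all genes). Between the EED and C2 lineages 3 were positive and 3 negative (10.2% and 10.9% of all genes), and between the KMT2D and C2 lineages 2 were positive and 4 negative (12.3% and 11.8%). KRT17 was lost least with the EED guide: its change there was 2.33 higher than with the KMT2D guide (SE 0.26, adjusted p = 3.5e-05) and 4.60 higher than in C2 (SE 0.27, adjusted p = 6.3e-08). KRT15 and KRT16 took the opposite order, with differences between the EED guide and C2 of -4.62 (SE 0.32, adjusted p = 2.3e-07) and -3.31 (SE 0.27, adjusted p = 1.1e-06). For KRT6A the EED change minus the C2 change was -0.75 (SE 0.57, adjusted p = 0.41), and it was 0.61 with an adjusted p of 0.046 when C2-Mes replicate 1 was left out.

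As filaments need both chain types, the summed levels per kb of coding length were compared. Among the 8 genes, type I chains outweighed type II chains in both edited mesenchymal groups. The ratio was 6.32 and 6.61 in the C1-sgEED-Mes libraries, against 0.607 and 0.604 in C1-sgEED-Epi. It was 5.96 and 6.32 in C1-sgKMT2D-Mes, against 0.598 and 0.651 in C1-sgKMT2D-Epi. In C2-Mes the ratio was 0.596 and 0.857, against 0.830 and 0.817 in C2-Epi. KRT17 alone made up 99.1% of the type I sum in both C1-sgEED-Mes libraries, against 79.4% and 78.6% in C1-sgEED-Epi, and 95.9% and 95.7% in C1-sgKMT2D-Mes, against 94.1% and 94.3% in C1-sgKMT2D-Epi. In C2-Mes it made up 63.0% and 49.8%, against 62.2% in both C2-Epi libraries. The level of KRT17 per kb was 52.8 and 49.7 times that of KRT6A in C1-sgEED-Mes and 19.5 and 21.4 times in C1-sgKMT2D-Mes, against 1.09 to 2.72 times over all epithelial libraries. The sums hold these 8 genes only, and the simple keratins described further on are outside them.

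**Figure D3:**
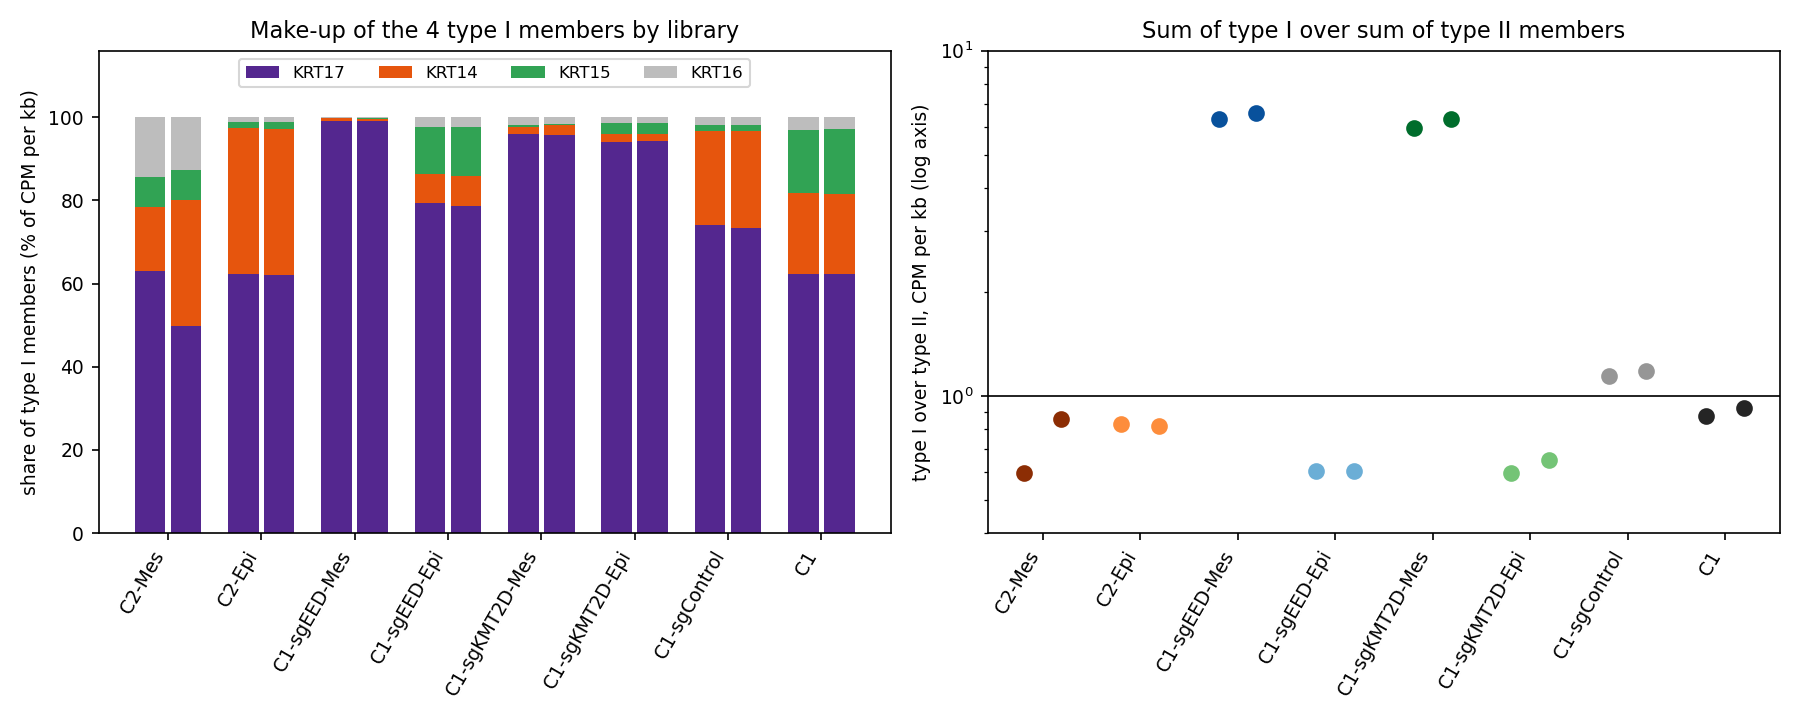
Left, the share of each type I keratin of the 8 genes in their summed type I CPM per kb of coding length, 1 bar per library, in percent. Right, the ratio of summed type I to summed type II levels of the 8 genes on a log axis, 1 point per library. KRT17 fills 95.7% to 99.1% of the bars of C1-sgEED-Mes and C1-sgKMT2D-Mes, and those groups have ratios of 5.96 to 6.61, against 0.596 to 1.18 in all other libraries.

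Among the mesenchymal groups the residual levels of some of these keratins also differed. Between the edited groups both counts were near the shares of all genes, as were the counts of higher genes in the other 2 comparisons. In C1-sgEED-Mes against C1-sgKMT2D-Mes, 2 of 8 were higher and 1 lower (17.7% and 13.4% of all genes were called higher and lower): KRT5 by 2.54 on the log2 scale (SE 0.20, adjusted p = 4.7e-07), KRT17 by 2.36 (SE 0.19, adjusted p = 7.5e-07), and KRT16 by -1.02 (SE 0.23, adjusted p = 0.0036). In C1-sgEED-Mes against C2-Mes, 2 were higher and 3 lower (21.7% and 20.2% of all genes). KRT17 was 32.0-fold higher there (log2 5.001, SE 0.22, adjusted p = 7.7e-10), and 4.64 to 5.36 with either C2-Mes library left out. KRT5 was 2.16-fold higher (adjusted p = 0.00030), and KRT14, KRT15 and KRT16 were lower by a log2 change of -1.01, -1.72 and -2.11. In C1-sgKMT2D-Mes against C2-Mes, 1 was higher, KRT17 by 2.65 (SE 0.20, adjusted p = 2.5e-07), and 4 were lower, KRT5, KRT14, KRT15 and KRT16 by -1.43, -1.54, -2.18 and -1.08 (16.2% and 17.2% of all genes). The last 2 comparisons share the C2-Mes libraries, and with only the compared libraries fitted KRT14 in C1-sgEED-Mes (adjusted p = 0.10) and KRT16 in C1-sgKMT2D-Mes (adjusted p = 0.089) did not pass. KRT6A had no stable direction against C2-Mes: its log2 change in C1-sgEED-Mes was 0.33, with 1.68 (adjusted p = 8.6e-07) without C2-Mes replicate 1 and -0.47 (adjusted p = 0.021) without replicate 2, and in C1-sgKMT2D-Mes it was -0.69, with 0.66 (adjusted p = 0.0095) and -1.48 (adjusted p = 2.7e-06).

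The epithelial groups, which keep these keratins, were compared next. C2-Epi, the plastic epithelial state, was lower than C1 for all 8 genes, with 18.3% of all genes called lower and a median log2 change of -2.22 over the 8 against -0.04 over all. The fall was steepest in KRT6B, with 1.81 and 2.42 CPM in C2-Epi, against 189.6 and 161 CPM in C1 (log2 -6.37, SE 0.29, adjusted p = 9.9e-09). KRT15 had 55.4 and 56.3 CPM in C2-Epi, against 1388 and 1501 CPM in C1 (log2 -4.69, SE 0.21, adjusted p = 9.9e-09). KRT16 had 37.2 and 38.7 CPM in C2-Epi, against 285 and 274 CPM in C1 (log2 -2.88, SE 0.18, adjusted p = 1.2e-07). In each of these the C2-Epi libraries lay far below both C1 libraries. KRT6C was 27.6-fold lower (6 and 6 counts in C2-Epi, against 180 and 121 in C1), and KRT5, KRT17 and KRT6A were 2.24-, 2.71- and 2.95-fold lower. KRT14 was 1.49-fold lower with an adjusted p of 0.038. Its call was lost, with adjusted p of 0.12 to 0.17, on leaving out any 1 of the 4 libraries, and its log2 change was -0.031 with an offset for GC content and gene length fitted in each library, an alternative chosen after seeing the data. The call of KRT6A (adjusted p = 0.010) was lost without C2-Epi replicate 1 or 2 (0.0601 and 0.0735) and with that offset (0.0632).

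C1-sgControl, which carries a control guide, was lower than C1 in 4 of 8 genes and higher in none. Of all genes, 13.8% and 13.3% were called lower and higher. The labels do not say whether the 2 groups differ in more than the guide. KRT15 had 123 and 165 CPM in C1-sgControl, against 1388 and 1501 CPM in C1 (log2 -3.32, SE 0.20, adjusted p = 3.8e-07). KRT6B had 31.1 and 33.3 CPM in C1-sgControl, against 189.6 and 161 CPM in C1 (log2 -2.44, SE 0.23, adjusted p = 1.1e-05). KRT6C was 2.35-fold lower, at 54 and 72 counts in C1-sgControl, against 180 and 121 in C1 (adjusted p = 0.031). KRT16 was 1.51-fold lower, at 179 and 192 CPM in C1-sgControl, against 285 and 274 CPM in C1 (adjusted p = 0.017). The groups were apart in all 4, yet the call of KRT16 was lost without any 1 of the 4 libraries (adjusted p 0.067 to 0.098), and that of KRT6C without C1 replicate 1 (0.24), C1-sgControl replicate 1 (0.18) or C1-sgControl replicate 2 (0.088). KRT5 had 6646 and 7741 CPM in C1-sgControl, against 8501 and 8643 CPM in C1, and KRT17 had 6222 and 7270.4 CPM, against 5397 and 5636 CPM, with adjusted p of 0.34 and 0.27. The 2 groups that serve as controls therefore differed 10.0-fold in KRT15 and 5.44-fold in KRT6B.

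Against C1-sgControl, C1-sgEED-Epi cells were higher in 2 of 8 genes and lower in 5 (24.3% and 24.6% of all genes). The count of higher genes was near the share of all genes. KRT14 had 235 and 295 CPM in C1-sgEED-Epi, against 2083 and 2516 CPM in C1-sgControl, an 8.68-fold lower level (log2 -3.12, SE 0.21, adjusted p = 1.7e-07). KRT15 had 371 and 460.4 CPM in C1-sgEED-Epi, against 123 and 165 CPM in C1-sgControl (log2 1.53, SE 0.18, adjusted p = 1.8e-05). KRT6B had 70.8 and 88.1 CPM in C1-sgEED-Epi, against 31.1 and 33.3 CPM in C1-sgControl (log2 1.30, SE 0.22, adjusted p = 0.00033). Groups did not overlap in these, but the direction of KRT15 and KRT6B depends on the control: against C1 both were lower in C1-sgEED-Epi, by a log2 change of -1.80 (adjusted p = 1.5e-05) and -1.14 (adjusted p = 0.0021). KRT5, KRT17, KRT6C and KRT16 were lower than in C1-sgControl, by 1.70-, 2.51-, 5.03- and 2.11-fold. KRT6A, at 2912 and 3497 CPM in C1-sgEED-Epi, against 3201 and 3495 CPM in C1-sgControl, had a log2 change of -0.06 (SE 0.39, adjusted p = 0.91). With the GC and length offset the changes of KRT14 and KRT17 were -2.32 and -0.63, and those of KRT5 and KRT16 were -0.20 and -0.27 and no longer passed (adjusted p = 0.43 and 0.26).

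C1-sgKMT2D-Epi cells were lower than the same C1-sgControl libraries in 7 of 8 genes and higher in none (30.7% and 25.3% of all genes were called lower and higher). KRT14 had 55.8 and 51.7 CPM in C1-sgKMT2D-Epi, against 2083 and 2516 CPM in C1-sgControl, a 42.8-fold lower level (log2 -5.42, SE 0.23, adjusted p = 8.4e-09). KRT16 had 40.1 and 44.7 CPM in C1-sgKMT2D-Epi, against 179 and 192 CPM in C1-sgControl (log2 -2.13, SE 0.17, adjusted p = 4.7e-07). KRT6B had 7.66 and 7.69 CPM in C1-sgKMT2D-Epi, against 31.1 and 33.3 CPM in C1-sgControl (log2 -2.07, SE 0.24, adjusted p = 8.1e-06). All libraries with the KMT2D guide were below both control libraries in these 3 genes. KRT5, KRT15, KRT17 and KRT6C were lower by 1.93-, 1.82-, 2.55- and 5.29-fold, and KRT6A had a log2 change of -0.54 that did not pass (adjusted p = 0.26). Against C1 the log2 changes of KRT15, KRT16, KRT6B and KRT6C were -4.19, -2.72, -4.51 and -3.64. Under the GC and length offset 4 of 8 were called, KRT14 at -4.33, KRT16 at -1.02, KRT6B at -1.27 and KRT6C at -1.62, with KRT5 at -0.16 (adjusted p = 0.54), KRT15 at -0.31 (0.12) and KRT17 at -0.41 (0.14).

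KRT14 was also low relative to KRT5, the other chain of the basal pair, in edited epithelial cells. Per kb of coding length, KRT14 was 0.0764 and 0.0795 of KRT5 in the C1-sgEED-Epi libraries and 0.0185 and 0.0176 of it in C1-sgKMT2D-Epi, against 0.392 and 0.406 in C1-sgControl and 0.269 and 0.275 in C1. In C2-Epi, which has no guide, the ratio was 0.414 and 0.405, against the same C1 values. Set against each other, C1-sgEED-Epi cells were higher than C1-sgKMT2D-Epi cells in 4 of 8 genes and lower in none (12.9% and 4.61% of all genes). These were KRT14, 4.93-fold (log2 2.30, SE 0.20, adjusted p = 4.4e-06), KRT15, 5.24-fold (log2 2.39, SE 0.19, adjusted p = 1.4e-06), KRT6B, 10.4-fold (log2 3.37, SE 0.24, adjusted p = 7.3e-07), and KRT16, 2.07-fold (log2 1.05, SE 0.17, adjusted p = 0.00055). KRT5, KRT17, KRT6A and KRT6C had log2 differences of 0.19, 0.02, 0.47 and 0.07 that did not pass.

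**Figure D4:**
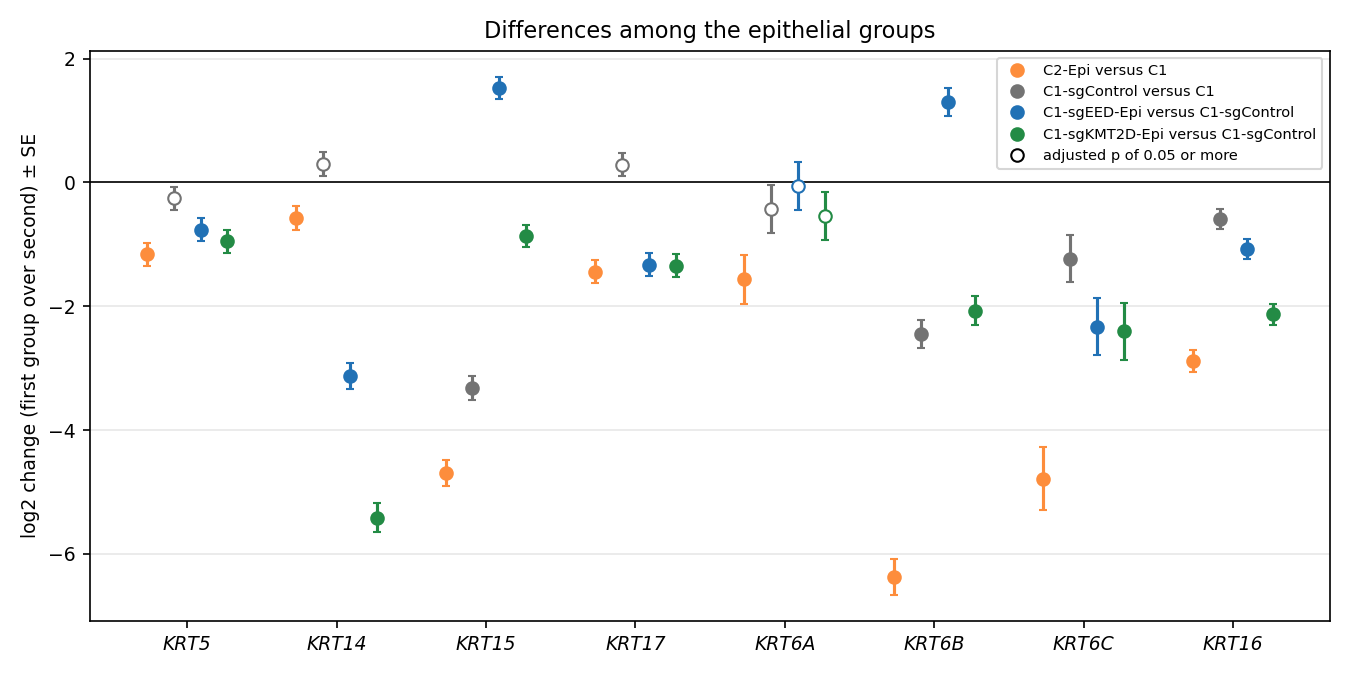
Log2 change of each keratin between epithelial groups, with bars of 1 SE from the fit; open points did not pass an adjusted p of 0.05. KRT14 lies at -3.12 with the EED guide and -5.42 with the KMT2D guide, whereas KRT15 and KRT6B are above 0 with the EED guide only against C1-sgControl, a group at -3.32 and -2.44 itself against C1.

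Neighbouring keratin genes did not all follow. The chromosome 12 cluster holds 27 keratin genes, of which 13 were tested; of the 9 that are not basal or stress keratins, 1 rose and 5 fell in C2-Mes, 3 rose and 6 fell in C1-sgEED-Mes, and none rose and 6 fell in C1-sgKMT2D-Mes. Of 7 such genes tested on chromosome 17, 1 rose and 1 fell in C2-Mes, 4 fell in C1-sgEED-Mes and 2 fell in C1-sgKMT2D-Mes. Of all genes, 21% rose and 18.6% fell in C2-Mes, 19.2% and 17.3% in C1-sgEED-Mes, and 26.8% and 24% in C1-sgKMT2D-Mes. The 2 on chromosome 17 in C1-sgKMT2D-Mes were near that share. KRT1 and KRT79, which rose with KRT8 in C1-sgEED-Mes, had low levels, at most 3.20 and 1.20 CPM in any group mean. The called genes among the 7 on chromosome 17 were at most 2.35 CPM. KRT8, the simple type II keratin of luminal cells, averaged 955 ± 110.4 CPM in C1-sgEED-Mes and 703 ± 75.04 CPM in C1-sgEED-Epi (SD, n = 2 each), a rise of 0.44 on the log2 scale (SE 0.14, adjusted p = 0.021), whereas it fell with a log2 change of -3.18 in C2-Mes and -3.16 in C1-sgKMT2D-Mes. KRT18, its type I partner, fell with a log2 change of -3.10 in C2-Mes, -1.10 in C1-sgEED-Mes and -3.93 in C1-sgKMT2D-Mes, and KRT7, another simple type II keratin, with changes of -2.96, -0.66 and -2.35. KRT8 and KRT18 are neighbours on opposite strands and the strand setting of the counts is not given, so reads between them are uncertain. As a share of its own epithelial mean, C1-sgEED-Mes had 25.2% of KRT17, 63.1% of KRT7, 135.9% of KRT8 and 46.6% of KRT18, against at most 19.6% of any of them in the other mesenchymal groups; the difference between lineages was not tested for the simple keratins here.

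**Figure D5:**
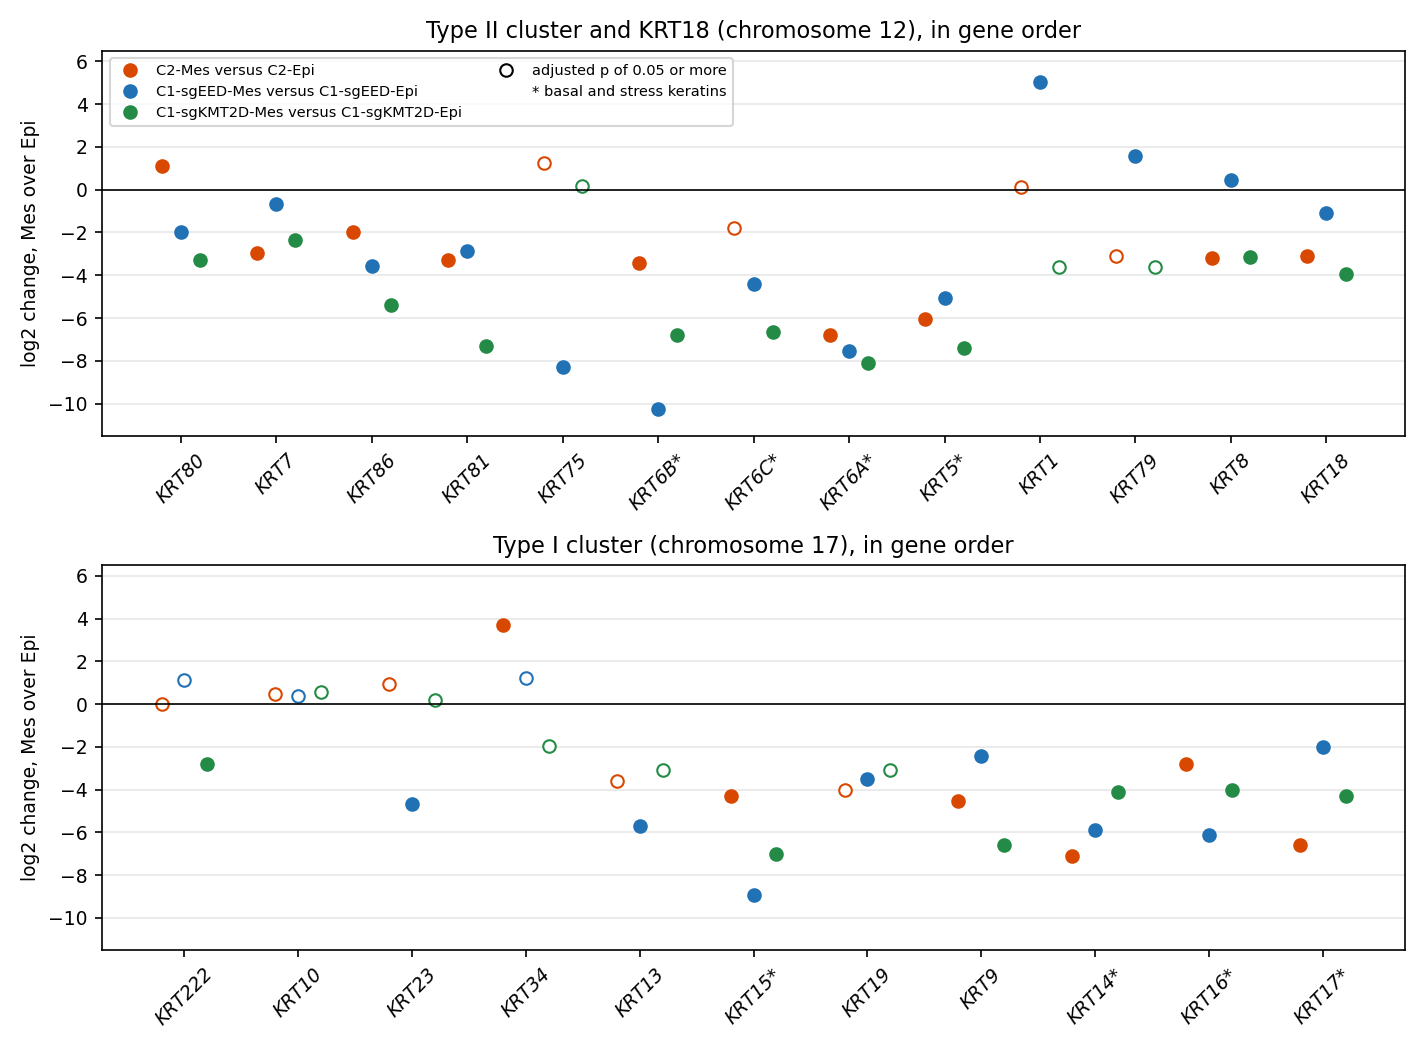
Log2 change in mesenchymal over epithelial cells for every tested keratin gene of the type II cluster (with KRT18) and the type I cluster, in gene order and not to distance; asterisks mark the 8 basal and stress keratins and open points did not pass an adjusted p of 0.05. Asterisked genes are all below 0. Of the other genes that passed, KRT8, KRT79 and KRT1 are above 0 in the EED lineage and KRT80 and KRT34 in C2. Some open points are also above 0.

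The structures that hold these filaments were described with a list of 18 desmosome, hemidesmosome and linker genes. Of these, 11 fell in C2-Mes, 14 in C1-sgEED-Mes and 12 in C1-sgKMT2D-Mes, against 18.6%, 17.3% and 24% of all genes. None rose, against 21%, 19.2% and 26.8% of all genes. The median log2 changes of the list were -2.16, -1.75 and -2.09. COL17A1, a transmembrane collagen of hemidesmosomes, fell with log2 changes of -8.03, -8.64 and -8.21 in the 3 lineages in that order. DSP, desmoplakin, which ties keratin filaments to desmosomes, had 3.05 ± 1.47 CPM in C2-Mes and 1262 ± 32.2 CPM in C2-Epi, and 49.1 ± 0.668 CPM in C1-sgKMT2D-Mes and 1017 ± 43.5 CPM in C1-sgKMT2D-Epi. In the EED lineage it averaged 998 ± 128 CPM in C1-sgEED-Mes and 1016 ± 153 CPM in C1-sgEED-Epi (log2 -0.03, SE 0.22, adjusted p = 0.95). ITGB4, the hemidesmosome integrin, fell in all 3, with log2 changes of -4.88 in C1-sgEED-Mes, -2.21 in C2-Mes and -2.24 in C1-sgKMT2D-Mes.

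Of 24 known regulators of these keratins, 3 rose and 13 fell in C2-Mes (21% and 18.6% of all genes). In C1-sgEED-Mes 3 rose and 15 fell (19.2% and 17.3%), and in C1-sgKMT2D-Mes 6 rose and 14 fell (26.8% and 24%). The 6 that rose in C1-sgKMT2D-Mes were near the share of all genes. The median log2 changes of the 24 were -0.71, -1.41 and -0.90. TP63, the transcription factor of basal cells that binds KRT5 and KRT14 enhancers, fell with log2 changes of -6.10, -9.96 and -6.08 in the C2, EED and KMT2D lineages. GRHL2, a factor of epithelial identity, fell with changes of -8.63, -8.40 and -7.48. In epithelial cells, TP63 was at 143 ± 8.67 CPM in C1-sgEED-Epi and 145 ± 17.8 CPM in C1-sgControl (log2 -0.02, adjusted p = 0.95), and at 77.2 ± 10.0 CPM in C1-sgKMT2D-Epi (log2 -0.91, adjusted p = 0.0032). ZNF750, a zinc finger factor of epidermal differentiation, was at 3.12 ± 0.801 CPM in C1-sgEED-Epi and 0.879 ± 0.0601 CPM in C1-sgKMT2D-Epi, against 17.3 ± 3.95 CPM in C1-sgControl, with log2 changes of -2.46 and -4.29 that both passed. Genes of barrier stress (S100A8, S100A9, SPRR1B and others, 14 tested) were also followed. In C2-Epi against C1, 14 of 14 fell (18.3% of all genes), with a median log2 change of -3.71. In C1-sgControl against C1, 10 of 14 were lower (13.8% of all genes), with a median of -1.51.

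Each gene's profile over the 8 group means was set beside those of 11681 other genes, by the root-mean-square difference of mean-centred log2 CPM. Given here for 6 of the 8, the nearest were S100A9 to KRT15 (1.01), ANXA8 to KRT17 (0.33), C1orf116 to KRT6A (0.38), S100A9 to KRT6B (1.09), CALML3 to KRT6C (0.61) and ELMO3 to KRT16 (0.54). Within the 8, KRT5 with KRT6A and KRT15 with KRT6B were the closest pairs, each at 0.78, and KRT15 with KRT17 the most distant at 2.42. These are descriptions over 8 means that share libraries.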

How the data were processed

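RNA-seq counts of 16 HMLER libraries were used. The deposited whole-number counts per Ensembl gene were made by the authors with STAR 2.7.1a and featureCounts on GRCh38, per the submitters' processing notes. How strand and reads with several matches were treated, and which annotation was counted, is not given in the sources used here. Symbols, coordinates and coding sequences came from GENCODE 29, which holds 56868 of the 60448 genes (94.1%), with at most 0.0463% of a library's counts outside it.

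Genes kept by filterByExpr (18285) were fitted in R 4.3.3 with edgeR 4.0.16 (TMM, robust quasi-likelihood, a mean for every group, 16 libraries, 8 residual degrees of freedom). In 11 pairs of groups and 3 differences of log2 changes, genes with an adjusted p (Benjamini-Hochberg, per comparison) under 0.05 were called. "Rose", "fell", "higher" and "lower" name the group written first. Folds at low counts use counts scaled by TMM library size, with exact intervals (95%). Where a group has no counts, a floor of 3 counts per library is used. The intervals cover counting error only, since no molecular identifiers are recorded. Coding length was used for levels per kb, in place of exon length as first planned.

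The members and gene lists were chosen with earlier results of these data known. Named genes are the 8 members, for each the genes with the nearest profile (among protein-coding genes with at least 5 CPM in the highest group, prior count 2), and up to 4 called genes of each list with the largest change in a transition; not all are printed, and the nearest profiles of KRT5 and KRT14 are not reported here. KRT1, KRT34 and KRT79 were named for their place in the clusters. Alternatives were RLE scaling, no low-count filter, DESeq2 1.42.0, a replicate block, other controls, a fit restricted to the compared libraries, paralogs summed and each library left out, and an offset for GC content and length (spline with 4 degrees of freedom) was added after seeing the data. The code was tested on simulated data. Deviations of same-numbered libraries correlated over 0.1 in 4 of 28 pairs of groups, with values of -0.371 to 0.344 over all pairs. The main fit did not treat the libraries as paired, and whether some groups share a batch was not tested. Figures were drawn with matplotlib 3.10.9.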

Additional observations from a re-analysis of the deposited data

Results flagged for a closer look

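For 6 of the 8 keratins the loss in mesenchymal cells was unlike between at least 1 pair of lineages. How many of all genes passed for at least 1 pair was not counted. For single pairs, 9.24% to 12.3% of all genes were called positive and 10.9% to 11.8% negative. The test was of an interaction term, the difference between 2 log2 changes, in edgeR's quasi-likelihood test with Benjamini-Hochberg adjustment. Between the EED and the KMT2D lineage this difference was 2.35 for KRT5 (SE 0.27, adjusted p = 3.6e-05), -1.77 for KRT14 (SE 0.31, adjusted p = 0.0011), -1.93 for KRT15 (SE 0.38, adjusted p = 0.0030), 2.33 for KRT17 (SE 0.26, adjusted p = 3.5e-05) and -2.07 for KRT16 (SE 0.28, adjusted p = 0.00016). A positive value means that less was lost in the lineage named first. KRT15 did not pass here without C1-sgKMT2D-Mes replicate 1 (-1.43, adjusted p = 0.072).

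Between the EED and the C2 lineage it was 0.96 for KRT5 (adjusted p = 0.017), 1.23 for KRT14 (adjusted p = 0.0080), -4.62 for KRT15 (adjusted p = 2.3e-07), 4.60 for KRT17 (adjusted p = 6.3e-08), -6.83 for KRT6B (adjusted p = 0.00012) and -3.31 for KRT16 (adjusted p = 1.1e-06). Between the KMT2D and the C2 lineage it was -1.39 for KRT5 (adjusted p = 0.0017), 3.004 for KRT14 (adjusted p = 1.0e-05), -2.69 for KRT15 (adjusted p = 6.3e-05), 2.26 for KRT17 (adjusted p = 3.7e-05), -3.36 for KRT6B (adjusted p = 0.014) and -1.24 for KRT16 (adjusted p = 0.0032). KRT5 between the EED and C2 lineages did not pass without either C2-Epi library (adjusted p = 0.052 and 0.051), C1-sgEED-Epi replicate 1 (0.069) or C1-sgEED-Mes replicate 1 (0.066), nor with only the compared libraries fitted (0.10), where KRT14 did not pass either (0.056). KRT6B between the KMT2D and C2 lineages did not pass without C2-Mes replicate 1 (-1.85, adjusted p = 0.35) or C1-sgKMT2D-Mes replicate 1 (0.067). The values of KRT6B rest on 3 counts or fewer in total in each edited mesenchymal group and depend on the fit. The epithelial levels of KRT14, KRT15 and KRT6B also differed between the lineages, as given in the comparisons of epithelial cells.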

How the results depend on the processing

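All 256 alternative log2 values of the 3 mesenchymal transitions kept their direction and their side of the threshold. Over all comparisons, 1239 of 1323 alternative log2 values did so, 33 lost and 23 gained the call, and 28 changed sign, of which 5 had an adjusted p under 0.05. The count of called keratins moved by over 1.5 times in 3 comparisons: to 5 in C1-sgEED-Mes against C1-sgKMT2D-Mes without the low-count filter, to 4 in C1-sgKMT2D-Epi against C1-sgControl with the GC and length offset, and in C1-sgControl against C1 to 2 with paralogs summed and to between 2 and 3 with 1 library left out. With that offset it was 6 in C2-Epi against C1 and 5 in C1-sgEED-Epi against C1-sgControl. With paralogs summed, KRT6A, KRT6B and KRT6C form a single feature, so KRT6B and KRT6C drop out of the count as separate genes. In C1-sgControl against C1, KRT15 and KRT16 kept their calls then, at log2 changes of -3.32 and -0.58. The summed KRT6 feature, at -0.46, was not called. With C1 as the control for C1-sgEED-Epi, KRT15 was at -1.80 and KRT6B at -1.14, and with both controls pooled KRT15 was at -0.135 (adjusted p = 0.51) and KRT6B at 0.080 (adjusted p = 0.76).

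Sign changes under the offset were KRT14 -0.074 and KRT17 -0.070 in C1-sgControl against C1, KRT6A 0.48 in C1-sgEED-Epi and 0.22 in C1-sgKMT2D-Epi against C1-sgControl, and KRT5 -0.046, KRT17 -0.22 and KRT6C -0.15 in C1-sgEED-Epi against C1-sgKMT2D-Epi. In this last comparison KRT17 was also at -0.010 without the filter and -0.021 with only the compared libraries. With 1 library left out, log2 values crossed 0 between -0.11 and 0.14 for KRT17 and between -0.42 and 0.91 for KRT6C in that comparison, between -0.20 and 0.063 for KRT6A in C1-sgEED-Epi against C1-sgControl, and between -0.52 and 0.46 for KRT6B in C1-sgEED-Mes against C1-sgKMT2D-Mes. Against C2-Mes they lay between -0.47 and 1.68 for KRT6A and between -3.74 and 2.28 for KRT6C in C1-sgEED-Mes, and between -1.48 and 0.66 for KRT6A and between -2.64 and 0.0059 for KRT6B in C1-sgKMT2D-Mes. Differences between lineages lay between -1.48 and 0.61 for KRT6A and between -4.96 and 1.12 for KRT6C (EED and C2), between -2.06 and 0.058 for KRT6A (KMT2D and C2) and between -0.073 and 3.22 for KRT6C (EED and KMT2D). The cause was not tested.

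With a replicate block the count of called keratins was the same in all 14 comparisons, for example 7 in C2-Mes against C2-Epi and 8 in both edited lineages, and the pairing of the numbers is not given by the labels. The 2 libraries of a group limit the precision, and KRT6A, whose spread comes mainly from C2-Mes, passed in 4 comparisons when only the compared libraries were fitted, with adjusted p of 0.026 in C1-sgControl against C1, 0.012 in C1-sgKMT2D-Epi against C1-sgControl, 0.014 in C1-sgEED-Epi against C1-sgKMT2D-Epi and 0.0041 in C1-sgEED-Mes against C1-sgKMT2D-Mes.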

Other observations

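Of 10 tested intermediate filament genes outside the keratins, 4 rose and 3 fell in C2-Mes (21% and 18.6% of all genes), 4 rose and 2 fell in C1-sgEED-Mes (19.2% and 17.3%), and 5 rose and 2 fell in C1-sgKMT2D-Mes (26.8% and 24%). VIM, vimentin, the main filament protein of mesenchymal cells, rose by 2.68, 1.78 and 1.33 on the log2 scale. NES, nestin, a filament protein of progenitor cells, rose by 6.84, 3.85 and 4.49. In C2-Mes NES was at 21.6 ± 20.25 CPM, against 0.186 ± 0.00815 CPM in C2-Epi (SD, n = 2 each). The C2-Mes libraries were thus far apart in NES, and the size of its change there is uncertain. NEFM, a neurofilament chain, fell by 1.67 in C2-Mes and by 2.83 in C1-sgEED-Mes, and its change in C1-sgKMT2D-Mes was 0.47 with an adjusted p of 0.11.

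KRT80, an epithelial type II keratin, was at 53.3 ± 6.20 CPM in C1-sgEED-Epi and 23.0 ± 1.39 CPM in C1-sgKMT2D-Epi, against 4.60 ± 0.323 CPM in C1-sgControl (SD, n = 2 each), with log2 changes of 3.53 and 2.32 and adjusted p of 3.9e-08 and 7.0e-07 in edgeR's quasi-likelihood test. KRT75, a hair follicle type II keratin, was at 7.73 ± 0.432 CPM in C1-sgEED-Epi and 0.0177 ± 0.0251 CPM in C1-sgKMT2D-Epi, against 1.65 ± 0.156 CPM in C1-sgControl. It passed in both comparisons, higher with the EED guide by 2.22 and lower with the KMT2D guide.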
